A study of Canis lupus familiaris with 8 samples.

Results

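The 5 canine mammary tumour (CMT) lines of a study of vesicle microRNAs (miRNAs) were divided into 2 sets chosen by their level of miR-200c, and the other miRNAs in the vesicles of these sets were compared. The set named here the high lines held the lines with a normalised miR-200c value above 1000, which were CMT-27 and CMT-12. The set named here the low lines held CMT-28, CMT-47 and CMT-119. These 5 lines came from a series of 8 samples. The other 3 (CMEC1, CMEC2 and CMEC3) are labelled as normal canine mammary cells and are given beside the lines as a further set of values.

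All 5 lines are labelled as mammary carcinoma cells, and no sample carries a treatment or a genetic change in the labels. Each line is represented by 1 library, so the spread within a set is the spread between lines. All 8 cultures were grown in medium without serum. Medium from an initial 24 hours was thrown away, medium from the next 48 hours was harvested on day 3, and small RNA was read from the vesicles (exosomes, membrane particles that cells release) in 5 mL of it. The measurements are therefore of released miRNA, and the miRNA inside the cells was not analysed here. The labels give the same input of 500 ng of RNA for every library, and the values were then normalised. They therefore do not measure how many vesicles were released. Vesicles released in smaller number and less miRNA per vesicle cannot be told apart in these values.

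The miR-200 family consists of miR-200a, miR-200b, miR-200c, miR-141 and miR-429, which are encoded in a pair of genomic clusters. In mammals the family is expressed in epithelial cells, where it represses the transcription factors ZEB1 and ZEB2, and these factors in turn repress the family. High family levels are a widely used marker of the epithelial state, and low levels accompany the epithelial-to-mesenchymal transition of carcinoma cells.

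miR-200c, the miRNA that set the groups (canFam3 chr27:38082097-38082119, minus strand, between PTPN6 and PHB2), had values of 13903 in CMT-27 and 2022 in CMT-12. Its values were 1, 2.08 and 8.06 in CMT-28, CMT-47 and CMT-119, where 1 is the floor of the table. CMT-12 was the line just inside the threshold and CMT-119 the line just outside it, so no line lay near 1000. The 3 CMEC samples, at 5.44, 25.5 and 12.5, lay with the low lines. As a share of the summed value over all mature miRNAs, miR-200c held 1.43% and 1.07% in CMT-27 and CMT-12, against 0.00167% or less in the low lines.

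The 3 other family members above the floor in any line went with miR-200c, and they are given as a description with no test. miR-200b, miR-200a and miR-429 lie in this order on chr5:56368408-56370582 (plus strand), within the span of TTLL10. miR-429 had 1127 and 269 in CMT-27 and CMT-12, and it was at the floor in the 3 low lines and the 3 CMEC samples. miR-200a had 380 and 232 in CMT-27 and CMT-12, and was at the floor in the 3 low lines. miR-200b had 269 and 130 in CMT-27 and CMT-12, and was at the floor in the 3 low lines. Both high lines thus had the chromosome 5 cluster above the floor and no low line did. Among the CMEC samples, CMEC2 alone was above the floor for a member of that cluster, with 5.67 for miR-200a. miR-141, next to miR-200c at chr27:38081676-38081696, was at the floor in all 8 samples. The plot of values by line shows miR-200c beside the miRNAs outside the family that are described next.

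**Figure D1:**
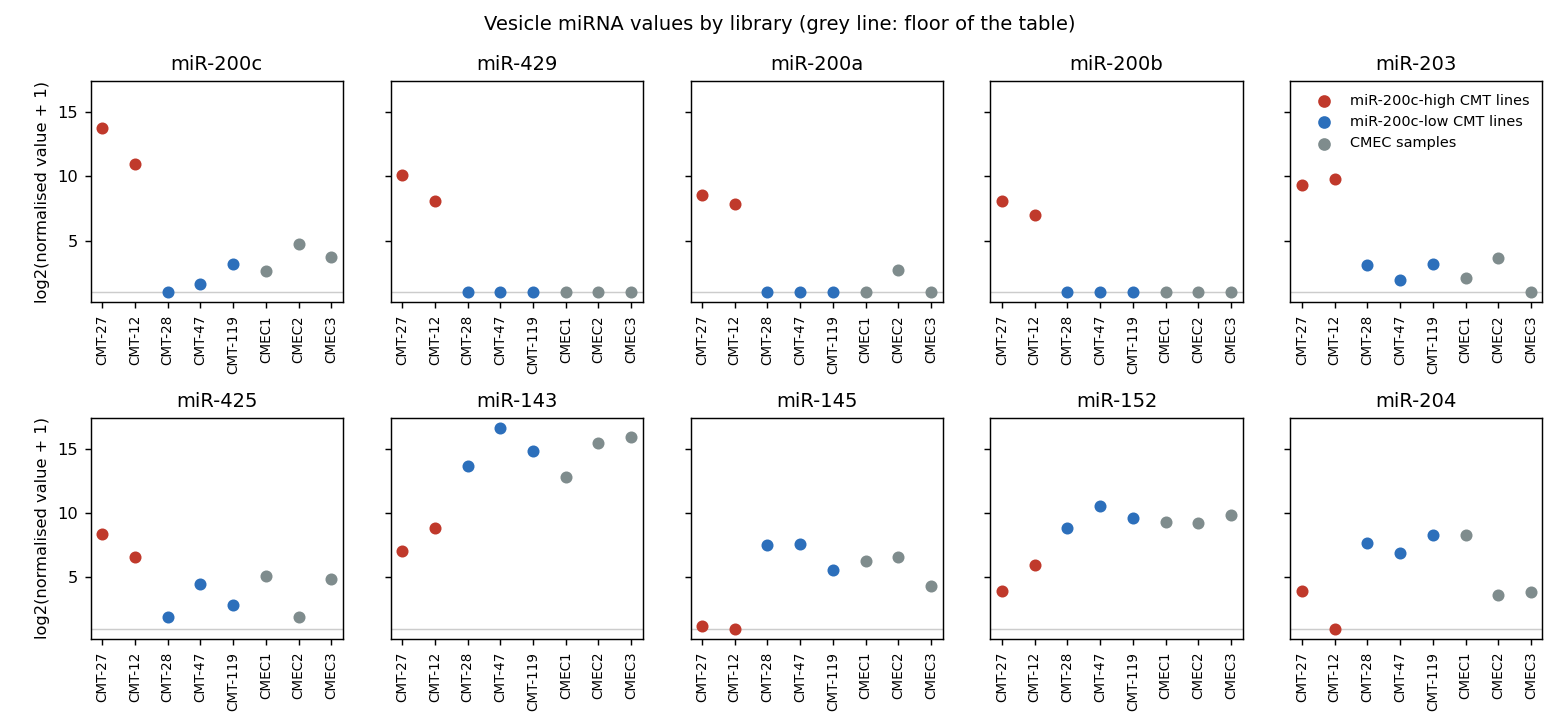
Normalised values of single miRNAs (y axis, log2 of value plus 1, with the floor of the table as a grey line) in the 2 high lines, the 3 low lines and the 3 CMEC samples, 1 point per library. miR-203 sat at 625 and 879 in the high lines and at 8.06 or less in the low lines, and miR-143 sat at 129 and 459 in the high lines and at 12574 or more in the low lines.

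Depth differed between libraries. Reads recovered from the values numbered 1405893 in CMT-27 and 81138 in CMT-12, against 845889, 1044754 and 540306 in CMT-28, CMT-47 and CMT-119. A floor value can hide at most 2 reads in CMT-28, 1 read in CMT-27, CMT-47 and CMT-119, and 0 in CMT-12. A single read contributed 2.32 to a value in CMT-12 and 0.386 to 0.895 in the other 4 lines, so a value under 6.96 in CMT-12 rested on fewer than 3 reads. The median log2 level of the tested miRNAs was 6.95 in CMT-27 and 4.73 in CMT-12, against 3.74 to 4.56 in the low lines. The median of the log2 differences of tested miRNAs was 1.03 on the deposited scale and 0.94 on the share scale. Rescaled values gave a median of -0.68 after median centring and -0.08 after quantile normalisation. List medians below are therefore given as distances from the median of all those tested.

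Of 192 miRNAs outside the family above the floor in 2 or more of the 5 lines, 2 were called higher and 2 lower in the high lines on the deposited scale (limma, Benjamini-Hochberg adjusted p under 0.05; 2.08% of those tested, 1.04% in each direction). On the share scale, log2 of the share in ppm plus 10, 6 were called higher (3.12%) and 3 lower (1.56%), and these 9 (4.69%) included the 4 of the deposited scale. At an unadjusted p under 0.05 there were 27 (14.1%) on the deposited scale, 22 higher (11.5%) and 5 lower (2.6%), and 46 (24%) on the share scale, 38 higher (19.8%) and 8 lower (4.17%). The split of adjusted calls depended on the scaling, with 1 higher and 11 lower after median centring, 0 higher and 5 lower after quantile normalisation, and 7 higher and 4 lower with limma-voom on recovered reads. On the share scale, none of the 6 higher calls held in the fits without CMT-28, CMT-47 or CMT-119. Of these 192, 8 were above the floor in both high lines and in no low line, so they could only be higher, and 2 were above it in low lines alone. Among the 8 were miR-382, called higher on both scales, and miR-329b, called higher on the share scale, so both calls were open in 1 direction only and support nothing here. Without these 10, 182 miRNAs remained, of which 1 rose (0.549%) and 2 fell (1.1%) on the deposited scale, and 4 rose (2.2%) and 3 fell (1.65%) on the share scale. At an unadjusted p under 0.05, 15 of the 182 were higher (8.24%) on the deposited scale and 31 (17%) on the share scale.

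**Figure D2:**
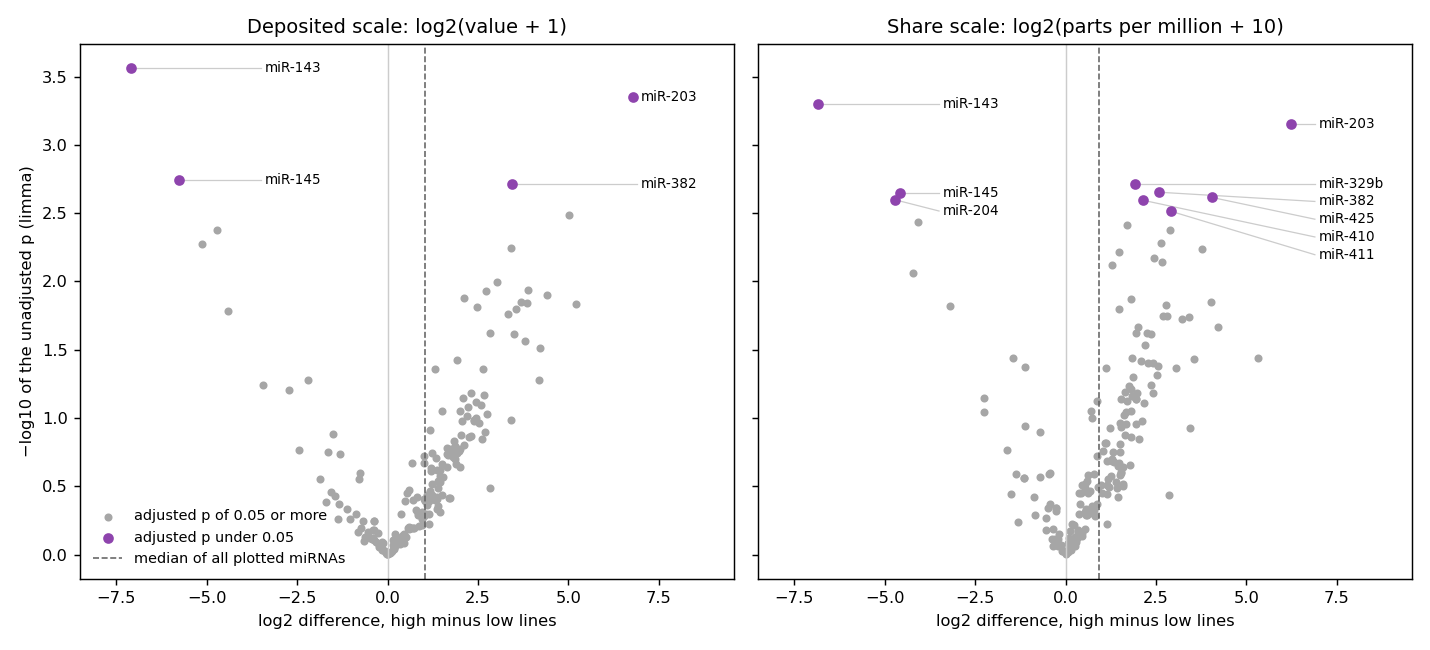
Log2 difference (high minus low lines, x axis) against −log10 of the unadjusted limma p (y axis) for the 192 tested miRNAs outside the miR-200 family, on the deposited scale and on the share scale. The named points are the 4 and 9 miRNAs with an adjusted p under 0.05, of which miR-382 and miR-329b could only be higher, and the dashed lines mark the median differences of 1.03 and 0.94.

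miR-203, a miRNA of skin and other epithelia that represses the epidermal stem cell factor p63, rose in the high lines. It had 625 in CMT-27 and 879 in CMT-12, against 7.73, 2.78 and 8.06 in CMT-28, CMT-47 and CMT-119. The CMEC samples had 3.26, 11.3 and 1. Both high lines stood apart from the other 6 samples, and the counts behind the low values were 20, 4 and 9 reads. The log2 difference was 6.79 ± 1.31 (SE; limma adjusted p = 0.0145 with n = 2 and 3 lines), and 6.24 ± 1.16 on the share scale (limma adjusted p = 0.0228). miR-203 lost the call in the fits without CMT-28, CMT-47 or CMT-119, where its adjusted p by limma was 0.0747, 0.132 and 0.0708, and after quantile normalisation, where it was 0.069. Its log2 difference lay between 6.38 and 7.04 on the deposited scale when each line was left out. Its share scale difference was 7.66 without CMT-27 and 4.82 without CMT-12, and 5.87 to 6.51 without a low line.

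Among 7 other epithelial miRNAs (miR-203, miR-205, miR-375, miR-31 and the miR-183, miR-96 and miR-182 cluster), all 7 were tested and had a difference above 0, against 74% of all tested miRNAs, and 1 passed the threshold on each scale, where 1.04% and 3.12% of all tested miRNAs were called higher. The median of the list lay 0.98 above that of all tested miRNAs on the deposited scale and 1.10 above it on the share scale. Its summed share was 1.87% in CMT-27 and 4.02% in CMT-12, against 1.09%, 0.894% and 0.723% in the low lines. The other members did not pass the test, and they differed in which high line carried them.

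miR-375, known from endocrine cells and from luminal breast epithelium, had 11.1 in CMT-27 and 104 in CMT-12, against 1, 2.08 and 3.58 in CMT-28, CMT-47 and CMT-119. The sets did not overlap, and the log2 difference was 3.55 ± 1.22 (SE; limma adjusted p = 0.141). The CMEC samples had a mean of 6.33 ± 9.24 (SD) for miR-375, and they did not all lie below CMT-27. miR-205, an epithelial miRNA that represses ZEB1 and ZEB2 like the miR-200 family, had 3.46 in CMT-27 and 473 in CMT-12, against 1, 1.39 and 15.2 in CMT-28, CMT-47 and CMT-119 (limma adjusted p = 0.415). It is named outside the rule for named miRNAs, after its values were seen, and it was high in CMT-12 alone. miR-31, likewise named after its values were seen, had 348 in CMT-27 and 2.32 in CMT-12, against 8.89, 9.02 and 10.7 in the low lines. The high lines thus lay on either side of the low lines for miR-31.

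miR-143, a miRNA of smooth muscle cells and fibroblasts, fell in the high lines. It had 129 in CMT-27 and 459 in CMT-12, against 12574, 100702 and 28986 in CMT-28, CMT-47 and CMT-119. The CMEC samples, at 7204, 43416 and 61468, lay above both high lines. The log2 difference was -7.09 ± 1.28 (SE; limma adjusted p = 0.0108 with n = 2 and 3 lines) and -6.86 ± 1.21 on the share scale (limma adjusted p = 0.0198). When each line was left out the log2 difference lay between -8.00 and -6.18 on the deposited scale. The share scale difference was -4.80 without CMT-27 and -8.91 without CMT-12, and -7.27 to -6.35 without a low line. The call on the deposited scale was lost without CMT-27 (limma adjusted p = 0.112), CMT-12 (0.0544), CMT-28 (0.0635) or CMT-47 (0.132).

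miR-145 is encoded beside miR-143 on chr4:59533178-59534555 (minus strand, between CSNK1A1 and IL17B) and promotes the differentiation of smooth muscle cells. It had 1.38 in CMT-27 and was at the floor in CMT-12, which stand for 2 reads and 0 reads, against 180.0, 190.1 and 46.5 in CMT-28, CMT-47 and CMT-119. The CMEC samples had 76.1, 96.3 and 19.4. The high lines lay below the other 6 samples. The log2 difference was -5.76 ± 1.36 (SE; limma adjusted p = 0.0474) and -4.57 ± 1.03 on the share scale (limma adjusted p = 0.0416), and the adjusted p lay between 0.0653 and 0.278 when any 1 line was left out.

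A list of 9 miRNAs known from mesenchymal cells and smooth muscle had 7 tested members, of which 2 fell, 0 rose and 3 had a difference above 0. Of all tested miRNAs 1.04% were called lower and 74% had a difference above 0. Its median lay at -1.20 relative to all tested miRNAs. The summed share of the list was 0.120% in CMT-27 and 0.340% in CMT-12, against 4.42%, 13.96% and 6.01% in the low lines, and 1.73%, 18.6% and 13.1% in the CMEC samples. Most of this sum in the low lines was miR-143, which made up 3.85%, 13.9% and 5.99% of the summed value of all miRNAs. miR-199, known from fibroblasts and named here after its values were seen, did not follow miR-143. Its values were 17.3 in CMT-27 and 18.5 in CMT-12, against 1616, 12.5 and 4.48 in CMT-28, CMT-47 and CMT-119. Only CMT-28 among the lines had a high miR-199 value, and the sets overlapped. miR-214, encoded near miR-199 and also named after its values were seen, had at most 5.02 in any line, against 65.2 and 51.3 in CMEC2 and CMEC3. miR-708 and miR-10b gave no test: miR-708 was at the floor in all 5 lines.

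miR-204, which lies within TRPM3 and is known from retinal pigment epithelium, fell on the share scale and missed the threshold on the deposited scale. It had 14.5 in CMT-27 and was at the floor in CMT-12, against 200.5, 115.9 and 321.3 in CMT-28, CMT-47 and CMT-119. The sets did not overlap, while CMEC2 at 11.3 and CMEC3 at 13.9 lay near CMT-27 and CMEC1 at 320.9 lay near CMT-119. The log2 difference was -4.72 ± 1.08 on the share scale (limma adjusted p = 0.0416) and -5.14 ± 1.44 on the deposited scale (limma adjusted p = 0.0937). On the share scale its adjusted p lay between 0.0722 and 0.183 when any 1 line was left out.

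miR-152, which lies within COPZ2 and targets the DNA methyltransferase DNMT1 in human cells, had 14.5 in CMT-27 and 60.3 in CMT-12, against 466, 1455 and 794 in CMT-28, CMT-47 and CMT-119. The CMEC samples had 618, 595 and 937, so the high lines lay below the other 6 samples. The log2 difference of miR-152 was -4.72 ± 1.27 (SE; limma adjusted p = 0.0822), which missed the threshold. It passed after median centring (limma adjusted p = 0.0153). The 3 miR-148 and miR-152 miRNAs share a seed and had a median of -2.67 relative to all tested miRNAs. None was called and 1 of 3 was above 0, where 74% of all tested miRNAs were.

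Among the other miRNAs with a lower level in the high lines, none passed on either scale. miR-455, within the collagen gene COL27A1 and known from cartilage, had 21.4 in CMT-27 and was at the floor in CMT-12, against 70.7, 299 and 132.5 in CMT-28, CMT-47 and CMT-119 (log2 difference -4.41 ± 1.53, SE; limma adjusted p = 0.141). miR-132, which is induced by CREB in neurons, had 33.2 in CMT-27 and was at the floor in CMT-12, against 46.4, 201.2 and 75.2 in the low lines (limma adjusted p = 0.330). Neither overlapped between the sets, and CMT-12 had no read of either. miR-34c, a target of p53, had 1.38 in CMT-27 and 2.32 in CMT-12, against 8.89, 23.6 and 8.06 in the low lines (limma adjusted p = 0.315). miR-129 had 15.9 in CMT-27 and 11.6 in CMT-12, against 131.4, 58.98 and 112.8 in the low lines (limma adjusted p = 0.351). miR-140, within WWP2 and known from cartilage, overlapped between the sets, with 2395 in CMT-27 and 236.5 in CMT-12 against 587, 18236 and 6360 in the low lines. miR-574 and let-7c also overlapped, with log2 differences of -1.87 and -1.55.

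miRNAs of the DLK1-DIO3 region mostly had higher levels in the high lines, with few reads behind many of them. In mammals this imprinted region encodes a large group of miRNAs that are expressed from the maternal chromosome, chiefly in embryo, placenta and brain. The table held 34 of them, all on the plus strand of chr8:69094392-69294432, with the gene RTL1 before and DIO3 after the main group. They were above the floor 23 times in CMT-27 and 15 times in CMT-12, against 0 times in CMT-28, 12 times in CMT-47 and 11 times in CMT-119. Of all 452 miRNAs, 209 in CMT-27 and 168 in CMT-12 were above the floor, against 152, 174 and 161 in CMT-28, CMT-47 and CMT-119. The CMEC samples had 20, 5 and 8 of the 34 above the floor, and 199, 141 and 152 of all 452. The summed share of the 34 was 0.262% in CMT-27 and 0.264% in CMT-12, against 0, 0.0205% and 0.0139% in CMT-28, CMT-47 and CMT-119. CMEC1, at 0.115%, lay between the high and the low lines.

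Of 17 tested members of the region, 3 (miR-329b, miR-382 and miR-494) passed the filter only through the high lines and are left out of the following counts. Of the other 14, 13 had a difference above 0 on the deposited scale and 14 on the share scale, where 73.6% and 78% of the 182 miRNAs did. The values did not overlap, with the high lines above, for 6 of the 14 on the deposited scale, where 27.5% of the 182 did so, and for 8 of the 14 on the share scale, where 33.5% did so. Over all 192 tested miRNAs these shares were 74% and 78.1% above 0, and 30.2% and 35.9% without overlap. limma called 0 of the 14 higher on the deposited scale and 2 on the share scale, where 0.549% and 2.2% of the 182 were called higher. At an unadjusted p under 0.05, 5 and 8 of the 14 were higher, where 8.24% and 17% of the 182 were. The median of the 14 lay 1.57 above that of all tested miRNAs on the deposited scale and 0.86 above it on the share scale.

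The 3 members that passed only through the high lines are described without a test. miR-382 had 26.3 in CMT-27 and 16.2 in CMT-12, from 38 and 7 reads, and was at the floor in CMT-28, CMT-47 and CMT-119. CMEC1 had 6.53, and CMEC2 and CMEC3 were at the floor. The mean of the high lines was 10.8-fold the mean worth of 3 reads in the low libraries. This ratio leaves out the counting error of the high lines, and its direction was fixed by the filter. miR-329b had 30.4 in CMT-27 and 4.64 in CMT-12, a value from 2 reads, and miR-494 had 147.3 in CMT-27 and 4.64 in CMT-12. Both were at the floor in the low lines.

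miR-410 and miR-411, of the same region, rose on the share scale and not on the deposited scale (limma adjusted p = 0.141 for each). miR-411 had 138.3 in CMT-27 and 6.96 in CMT-12, against 1, 1 and 1.79 in CMT-28, CMT-47 and CMT-119 (share scale log2 difference 2.93 ± 0.69, SE; limma adjusted p = 0.0463). miR-410 had 40.8 in CMT-27 and 6.96 in CMT-12, against 1, 1 and 1.79 in the low lines (share scale log2 difference 2.15 ± 0.49, SE; limma adjusted p = 0.0416). The CMT-12 values of miR-411 and miR-410 rested on 3 reads each. The share scale difference of miR-411 was 2.08 without CMT-27 and 3.78 without CMT-12.

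Other members of the region did not pass the test. miR-495 had 29.1 in CMT-27 and 25.5 in CMT-12, against 1, 1 and 3.58 in CMT-28, CMT-47 and CMT-119 (limma adjusted p = 0.0937). miR-381, named after its values were seen as the member with the highest value, had 1220 in CMT-27 and 37.1 in CMT-12, against 1, 45.8 and 16.1 in the low lines. CMT-12 lay within the range of the low lines for miR-381. The members at the start of the region had another pattern: miR-127, also named after its values were seen, had 3.46 in CMT-27 and 88.1 in CMT-12, against 1, 29.8 and 19.7 in the low lines. The heat map of the region shows this change along the chromosome, with miR-433, miR-127, miR-432 and miR-370 near the floor in CMT-27. The run that opens with miR-379 and ends with miR-485 (chr8:69253808-69284261) held 12 tested members. All 9 of them other than miR-329b, miR-382 and miR-494 had a difference above 0 on both scales. Of the 182 miRNAs, 73.6% on the deposited scale and 78% on the share scale did so. These 9 are among the 14 members counted above and give no separate result.

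**Figure D3:**
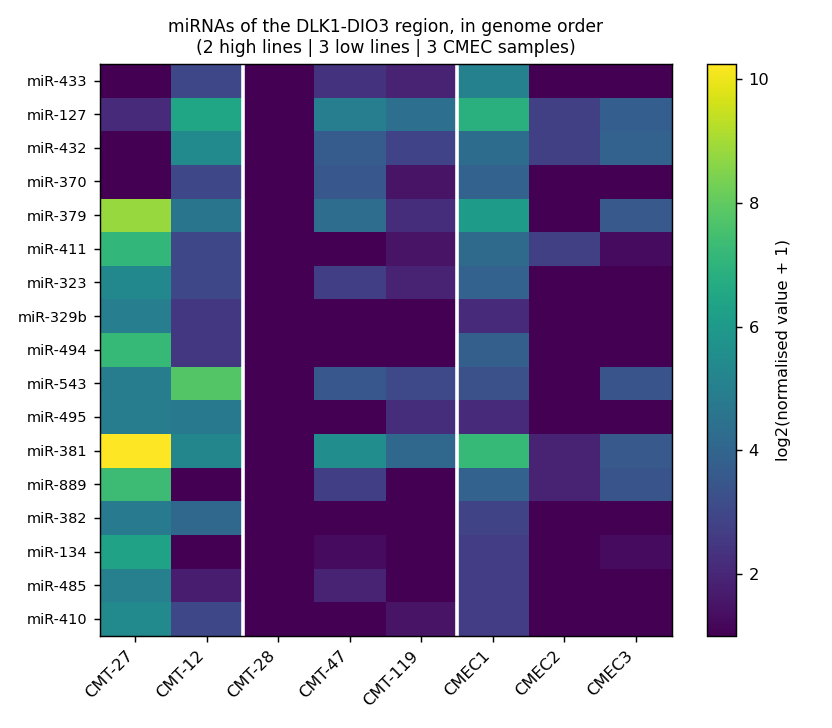
Log2(normalised value + 1) of the 17 tested miRNAs of the DLK1-DIO3 region (rows, in genome order) in the 2 high lines, the 3 low lines and the 3 CMEC samples (columns). miR-329b, miR-382 and miR-494 passed the filter only through the high lines. CMT-28 was at the floor for all rows, and miR-381 reached 1220 in CMT-27.

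miR-425, encoded beside miR-191 on chromosome 20 between NDUFAF3 and DALRD3, rose on the share scale. It had 331.3 in CMT-27 and 95.1 in CMT-12, against 2.705, 21.5 and 6.27 in CMT-28, CMT-47 and CMT-119. The CMEC samples, at 33.7, 2.83 and 27.7, also lay below both high lines. The log2 difference of miR-425 was 4.06 ± 0.92 on the share scale (SE; limma adjusted p = 0.0416) and 4.40 ± 1.44 on the deposited scale (limma adjusted p = 0.141). Its neighbour miR-191, named for comparison after its values were seen, overlapped between the sets and differed by 0.37 ± 1.13 (SE).

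miR-147, which passed the filter only through the high lines and is given without a test, had 15.2 and 257.4 in CMT-27 and CMT-12, and was at the floor in the other 6 samples. Its mean was 69.0-fold the mean worth of 3 reads in the low lines, without allowance for counting error in the high lines. CMT-12 carried most of this: the value of CMT-27 alone was 7.70-fold that worth. Several further miRNAs had large differences and did not pass on either scale. miR-146b, a negative regulator of innate immune signalling that is induced by NF-kappaB, had 241.4 in CMT-27 and 15044 in CMT-12, against 21.2, 113.1 and 52.8 in CMT-28, CMT-47 and CMT-119 (limma adjusted p = 0.141). Its share was 7.996% in CMT-12 and at most 0.0248% in the other lines. miR-155, which is induced in activated lymphocytes and macrophages, had 1210 in CMT-27 and 197 in CMT-12, against 74.6, 97.1 and 60.9 in the low lines (limma adjusted p = 0.360). The 3 tested members of the inflammatory list, with miR-146a, all had differences above 0, where 74% of all tested miRNAs did, and none was called. The sets overlapped for miR-146a, which had its highest value in a low line. It had 98.2 in CMT-27 and 185.5 in CMT-12, against 6.18, 21.5 and 1444.6 in CMT-28, CMT-47 and CMT-119. The summed share of the list was 0.159% in CMT-27 and 8.2% in CMT-12, against 0.0312%, 0.0320% and 0.322% in the low lines. The list median lay 1.64 above that of all tested miRNAs.

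miR-6529, within GSK3B, had 42.2 in CMT-27 and 102.0 in CMT-12, against 2.705, 6.94 and 3.58 in CMT-28, CMT-47 and CMT-119 (limma adjusted p = 0.141). miR-130b had 23.5 in CMT-27 and 4.64 in CMT-12, against 1, 1.39 and 1 in the low lines (limma adjusted p = 0.141). miR-301a, which shares its seed with miR-130b, was above the floor in both high lines and no low line, with 16.6 in CMT-27 and 2.32 in CMT-12, where it rested on 1 read. Of the miR-130 and miR-301 family, the 3 tested members other than miR-301a had a difference above 0, where 73.6% of the 182 miRNAs did. None was called, and their median lay 1.29 above that of all tested miRNAs.

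miR-181c and miR-181d form a cluster on chromosome 20 and belong to a family that acts in lymphocyte development. miR-181c had 280.1 in CMT-27 and 211.0 in CMT-12, against 43.3, 16.0 and 12.5 in CMT-28, CMT-47 and CMT-119. miR-181d had 1663 in CMT-27 and 864.9 in CMT-12, against 229.9, 192.9 and 154.8 in the low lines. Both lay above all low lines and all CMEC samples in both high lines and missed the threshold (limma adjusted p = 0.183 and 0.278). The 4 members of the family had a median 0.72 above that of all tested miRNAs. Differences were above 0 for 4 of 4, where 74% of all tested miRNAs were, and none was called. The sets overlapped for miR-181a and miR-181b. The share of miR-181a was 0.313% in CMT-27 and 0.357% in CMT-12, against 0.858%, 0.0445% and 0.175% in the low lines. The summed share of the family was highest in a low line: 0.689% in CMT-27 and 1.142% in CMT-12, against 1.196%, 0.108% and 0.307% in CMT-28, CMT-47 and CMT-119.

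The 3 miR-29 miRNAs, which repress collagens and other matrix genes, lay higher without overlap in 3 of 3 cases on both scales, where 30.2% and 35.9% of all tested miRNAs did so, and none was called. miR-29c had 80.9 in CMT-27 and 9.28 in CMT-12, against 3.86, 1.39 and 1 in CMT-28, CMT-47 and CMT-119 (limma adjusted p = 0.142). miR-29b had 164.6 in CMT-27 and 69.6 in CMT-12, against 37.1, 13.9 and 12.5 in the low lines (limma adjusted p = 0.415). The list median lay 1.42 above that of all tested miRNAs.

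miRNAs of the proliferation-associated miR-17 clusters and their paralogues had no call. Of 11 tested members, 10 had a difference above 0, where 74% of all tested miRNAs did. The high lines lay above without overlap for 5 of the 11 on the deposited scale and 7 on the share scale, where 30.2% and 35.9% of all tested miRNAs did so. The list median lay 0.62 above that of all tested miRNAs. miR-106b, in MCM7, had 306.4 in CMT-27 and 34.8 in CMT-12, against 29.4, 6.94 and 14.3 in CMT-28, CMT-47 and CMT-119 (limma adjusted p = 0.415). miR-25, of the same cluster, had 2777 in CMT-27 and 718.8 in CMT-12, against 154.5, 540.5 and 481.5 in the low lines (limma adjusted p = 0.476).

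The abundant miRNAs were compared as shares of the summed value. With 2 against 3 lines an exact two-sided permutation test over 10 splits cannot go below 0.1, so none of these comparisons could pass 0.05. The 10 most abundant miRNAs together made up 69.7% in CMT-27 and 61.4% in CMT-12, against 82.9%, 83.2% and 80.5% in the low lines. miR-21, the leading miRNA of all 5 lines, held 49.6% in CMT-27 and 24.9% in CMT-12, against 63.1%, 54.4% and 54.0% in CMT-28, CMT-47 and CMT-119. Its mean was 37.2% ± 17.5 in the high lines (SD, n = 2) and 57.2% ± 5.16 in the low lines (SD, n = 3; exact permutation p = 0.1, 0.25 after Benjamini-Hochberg adjustment over the 10). The sets did not overlap for miR-21, and the spread between the high lines was wide.

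miR-27b, which is encoded with miR-23b and miR-24, held 7.76% in CMT-27 and 11.3% in CMT-12, against 1.39%, 1.85% and 5.41% in CMT-28, CMT-47 and CMT-119 (exact permutation p = 0.1, adjusted 0.25). miR-148a, an abundant miRNA of milk, held 1.09% in CMT-27 and 2.05% in CMT-12, against 3.998%, 4.44% and 3.83% in the low lines (exact permutation p = 0.1, adjusted 0.25). miR-30d held 2.03% in CMT-27 and 4.37% in CMT-12, against 0.457%, 1.36% and 1.39% in the low lines (exact permutation p = 0.1, adjusted 0.25). The shares of these 3 miRNAs did not overlap between the sets. Of all tested miRNAs, 35.9% lay higher and 6.25% lower in the high lines without overlap on the share scale. The mean shares of let-7a were 2.59% ± 0.678 in the high lines (SD, n = 2) and 2.59% ± 1.30 in the low lines (SD, n = 3; exact permutation p = 1). let-7b, let-7f and miR-99a overlapped as well (exact permutation p = 0.6, 0.8 and 0.4).

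miR-122, a miRNA of hepatocytes, held 9.76% in CMT-12 and 0.0127% in CMT-27, against 0.000946%, 0.235% and 0.277% in CMT-28, CMT-47 and CMT-119 (exact permutation p = 0.3). The high lines thus lay on either side of 2 of the low lines for miR-122. The plot of shares by line shows the separate positions of CMT-27 and CMT-12.

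**Figure D4:**
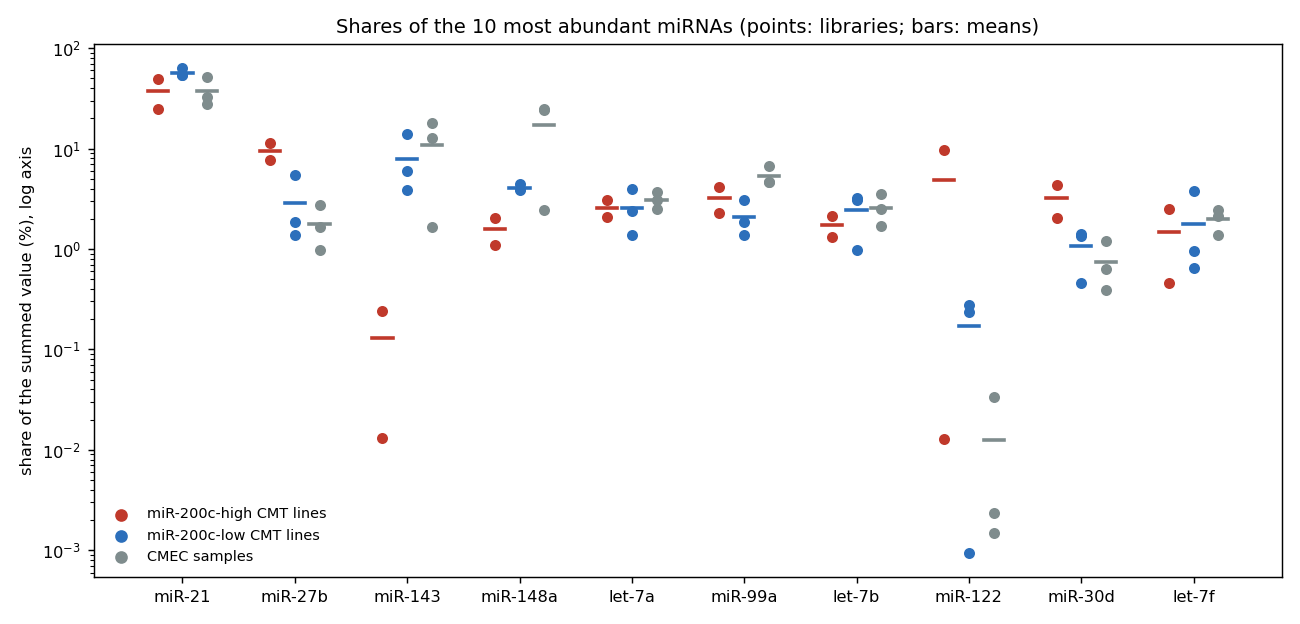
Share of the summed value (percent, log axis) of the 10 most abundant miRNAs over the 5 lines, 1 point per library, with the high lines, the low lines and the CMEC samples in different colours. For miR-143 the high lines were at 0.0132% and 0.244% and the low lines between 3.85% and 13.9%.

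The list of miR-23, miR-27 and miR-24 miRNAs summed to 16.7% in CMT-27 and 15.1% in CMT-12, against 4.36%, 4.61% and 9.02% in the low lines. Of its 5 members, 4 had a difference above 0, where 74% of all tested miRNAs did, and none was called. The list median lay at -0.44 relative to all tested miRNAs. miR-27a had 27666 in CMT-27 and 3729 in CMT-12, against 1160, 2036 and 2682 in CMT-28, CMT-47 and CMT-119. Both high lines lay above all low lines for miR-27a, with a log2 difference of 2.64 ± 0.69 on the share scale (SE; limma adjusted p = 0.0601).

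The remaining lists had no called member on either scale, and their medians are given relative to all those tested on the deposited scale. The median was -1.19 for let-7 with 3 of 8 above 0, -1.27 for miR-30 with 2 of 5, and -1.27 for the luminal list with 3 of 7. It was -0.80 for the 8 tested miRNAs described as raised in mesenchymal states, of which 5 were above 0, and -0.80 for miR-221 and miR-222, both above 0. It was 0.11 for the miR-10, miR-99, miR-125 and miR-196 list with 6 of 8 above 0, 0.21 for miR-15 and miR-16 with 3 of 5, and -0.32 for miR-34, miR-192, miR-194 and miR-215 with 3 of 5. Without miR-34a, which was above the floor in low lines alone, the median of this list was 0.074. Of all tested miRNAs 74% were above 0. Within the list that holds miR-99 and miR-125, miR-99b had 9376 in CMT-27 and 2279 in CMT-12, against 905, 1542 and 1570 in the low lines, and miR-125a had 2995 in CMT-27 and 422 in CMT-12, against 436, 106 and 208 in the low lines. The plot of list differences shows every tested member.

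**Figure D5:**
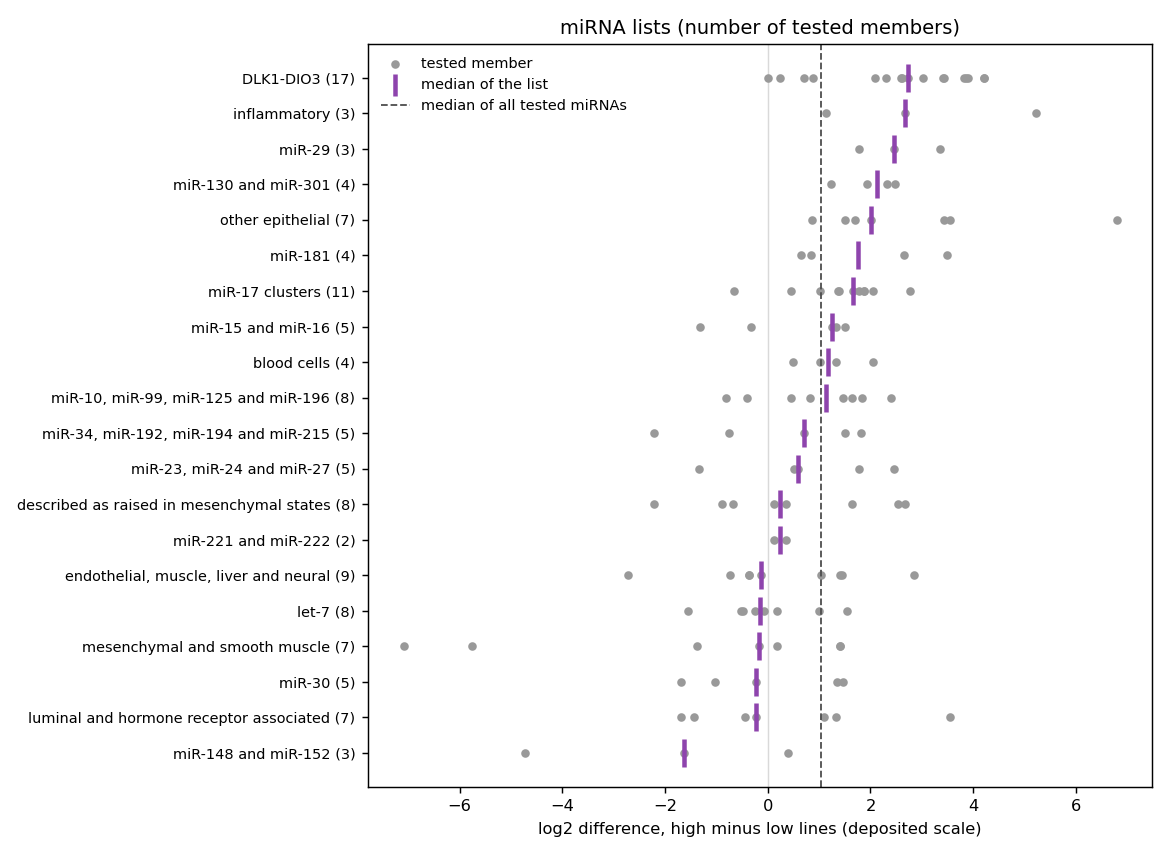
Log2 difference (high minus low lines, deposited scale, x axis) of each tested member of the 20 lists outside the miR-200 family (points), with list medians (bars) and the median of all tested miRNAs, 1.03 (dashed line). The miR-148 and miR-152 list had the lowest median. The points and bar of the DLK1-DIO3 list include 3 members, those of the miR-130 and miR-301 list 1 and those of the miR-34 list 1 that could differ in 1 direction only.

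The summed shares of 2 marker lists of other cell types were highest in CMT-12 among the lines. The 6 blood-cell miRNAs had a summed share of 0.00142% in CMT-27 and 0.116% in CMT-12, against 0.00319%, 0.00191% and 0.00592% in the low lines. Of these 6, 2 were above the floor in CMT-27 and 4 in CMT-12, against 1, 2 and 3 in the low lines, and miR-223, a defining marker of myeloid cells, was at the floor in all 5 lines. The red-cell miRNA miR-451 had 41.7 in CMT-12 and was at the floor in CMT-27, CMT-28 and CMT-47. miR-142, of the same list, had 27.8 in CMT-12, from 12 reads, and was at the floor in the other lines. miR-486, also of this list, had a mean share of 0.0375% in the high lines and 0.00337% in the low lines. The high mean came from CMT-12. In CMT-27 miR-486 held at most 0.00142%, the sum of the whole list, which is below the mean of the low lines. The list of endothelial, muscle, liver and neural miRNAs summed to 0.371% in CMT-27 and 10.8% in CMT-12, against 0.203%, 0.407% and 0.673% in the low lines, most of it miR-122 in CMT-12. Single members of this list had other orders. The endothelial miR-126 had 23.5 in CMT-27 and was at the floor in CMT-12. The muscle miRNA miR-1 had 108.6 and 25.5 in CMT-27 and CMT-12, against 351.8 in CMT-119. The medians of the blood-cell list and of this list lay at 0.14 and -1.17 relative to all tested miRNAs. Differences were above 0 for 4 of 4 and 4 of 9 tested members, where 74% of all tested miRNAs were. The part of these RNAs in the difference of miR-146b, which was likewise highest in CMT-12, was not tested.

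Values lower in both high lines than in all low lines were found for 11 miRNAs on the deposited scale (5.73%) and 12 on the share scale (6.25%). Values without overlap on both scales were found for 52 higher miRNAs (27.1% of 192) and 11 lower ones (5.73%). The 52 include the 8 that could only be higher, and 44 of the 182 others (24.2%) remained without them. The 3 CMEC samples lay below both high lines for 34 of the 44 on the deposited scale and for 37 on the share scale. They lay above both high lines for 6 of the 11 on the deposited scale and for 7 on the share scale. These miRNAs had been picked for high lines beyond all low lines. The share of all 182 miRNAs with such CMEC positions was not counted, so no result about the CMEC samples is drawn. Of the 182, CMT-27 lay above all low lines for 127 miRNAs and below all of them for 13, whereas CMT-12 lay above for 62 and below for 52. On the share scale these counts were 103 and 24 for CMT-27 and 97 and 38 for CMT-12.

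The high lines were about as correlated with each other as each was with the low lines. The Spearman correlation over 196 miRNAs was 0.735 between CMT-27 and CMT-12, 0.738 to 0.753 between CMT-27 and each low line, and 0.629 to 0.746 between CMT-12 and each low line. It was 0.875 to 0.939 among the low lines. These values are a description: they run across miRNAs, which are not independent, and depend on depth, which was lowest in CMT-12.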

How the data were processed

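Small RNA libraries of 8 vesicle samples were analysed from 1 table. The deposited table gives the authors' normalised signal, linear, for every locus and library, with a lowest value of 1. The build is canFam3, per the submitters' processing notes. Which aligner, counting program and normalisation were used is not given in the sources used here. Apart from the floor, at least 99.0% of values in each library were whole multiples of 1 step within 0.05 steps, and value divided by step was read as a read count. That reading comes from the values, not from a label. Total sequencing depth was not counted here.

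The 511 loci were reduced to 452 miRNAs by taking, for 45 names with several loci, the one of highest mean. Floor values counted as 0 in shares. The test took miRNAs with a value over 1 in 2 or more of 5 lines: 196, of which 4 belong to the miR-200 family and were not counted. log2(value + 1) and log2(share in ppm + 10) were fitted in R 4.3.3 with limma 3.58.1, using eBayes and its intensity trend, high minus low lines, two-sided, with Benjamini-Hochberg adjustment. Fold changes on these scales understate the change of low miRNAs. Fold ratios of miR-382 and miR-147 to the floor use 3 reads per low library as the floor. They allow for counting error in the low lines only, because high values are taken as observed and reads carry no molecular identifiers. The fit was also run on simulated data with known changes.

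The sets, the lists and the comparisons were chosen with earlier results of these data known. The sets come from the data themselves, so the p-values apply to these 5 libraries. They cannot be read as inference on miR-200c-high and miR-200c-low lines in general. The labels number the CMEC samples as biological replicates without naming the dogs, and give each CMT line as 1 sample. Named miRNAs were the 12 per direction with the lowest p on the deposited scale and the 6 per direction on the share scale (mean of at least 10 in either set), the 10 most abundant, the family, and the 2 members of each list with the lowest p. The rule allowed up to 3 per list, and 2 were used, for length, after the output was seen. miR-335, which had been put in the DLK1-DIO3 list, lies on chromosome 14 in the table and was left out of it. Gene neighbours come from the RefSeq gene table of dog, in which 443 of 452 miRNAs matched by gene ID, for names only. Alternatives covered pseudocounts, filters, scaling, the spread estimate, loci, limma-voom on recovered reads and leaving out each line.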

Additional observations from a re-analysis of the deposited data

Results flagged for a closer look

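In 6 of 59 miRNAs screened over the 5 tumour lines, 1 line stood apart from the other 4 by a gap above 0.71 of the whole range on the log2 scale. That limit flags about 1 in 20 groups when values are normal and unselected. The screened miRNAs were largely named for differences between these same lines, and some values tie at the floor. The count of 6 is therefore not set against that rate. In CMT-27 these were miR-494, with a value of 147.3, miR-190b with 17.98, miR-301a with 16.6 and miR-194 with 13.14. The next highest line had a log2 value of 2.495 for miR-494, against 7.213 in CMT-27. In CMT-12 they were the red-cell miRNAs miR-451, with a value of 41.74, and miR-144 with 9.275, which rested on 18 and 4 reads. All 6 were highest in a high line, and miR-494 and miR-301a passed the filter only through the high lines.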

How the results depend on the processing

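The number of calls depended on the settings. On the deposited scale the 2 higher and 2 lower calls became 1 and 1 with a pseudocount of 10, without the filter, with the filter set to all 5 lines and with all loci as separate rows. They became 5 and 3 with the spread of all 8 samples, 1 and 2 without the trend or with robust fitting, 1 and 11 after median centring, 0 and 5 after quantile normalisation, and 7 and 4 with limma-voom. When each line was left out, the counts ranged between 0 and 39 higher and between 0 and 2 lower: 13 and 2 without CMT-27, 39 and 1 without CMT-12, 0 and 0 without CMT-28, 0 and 0 without CMT-47, and 0 and 1 without CMT-119. A fit with 1 high line takes its spread from the low lines alone, which is 0 where all are at the floor, and assumes that the lone line varies like them. On the share scale the 6 higher and 3 lower calls became 0 and 0 with a pseudocount of 100 ppm, 2 and 1 without the filter or with the filter set to all 5 lines, 12 and 4 with the spread of all 8 samples, 2 and 4 without the trend, with robust fitting or without miR-21 in the sum, and 4 and 1 with floor values kept at 1, a setting chosen after seeing the data. When each line was left out they ranged between 0 and 26 higher and between 0 and 5 lower: 26 and 5 without CMT-27, 19 and 3 without CMT-12, 0 and 0 without CMT-28 or CMT-47, and 0 and 1 without CMT-119. The cause was not tested. Beside the 0 calls of a setting, the main fits had 22 higher and 5 lower miRNAs at an unadjusted p under 0.05 on the deposited scale and 38 and 8 on the share scale. The 58 higher and 11 lower miRNAs without overlap on the deposited scale became 37 and 6 with the filter set to all 5 lines, 13 and 50 after median centring, and 27 and 25 after quantile normalisation, and the 12 lower on the share scale became 7 with the filter. The 4 miRNAs called on the deposited scale and the 9 called on the share scale kept their sign in all alternatives run, which for miR-382 and miR-329b is fixed by the filter. Uncalled miRNAs changed sign. After median centring these were miR-99a at -1.26, miR-30d at -0.25, miR-190b at -0.38, let-7d at -0.16, miR-195 at -0.47, miR-194 at -0.21, miR-222 at -1.35, miR-221 at -1.59, miR-144 at -0.69, miR-128 at -0.26. After quantile normalisation they were let-7a at 0.15, miR-222 at -0.13, miR-221 at -0.60, and with limma-voom let-7a at 0.23 and let-7f at 0.13. The log2 difference with each line left out lay between -4.02 and 0.29 for miR-574, between -3.32 and 0.22 for let-7c, between -2.56 and 0.80 for miR-21, between -1.53 and 1.38 for let-7a, between -0.32 and 1.21 for miR-99a, between -1.38 and 0.30 for let-7b, between -0.76 and 6.45 for miR-122, between -2.90 and 1.93 for let-7f, between -0.29 and 2.95 for miR-190b, between -3.79 and 0.41 for miR-30a, between -1.26 and 1.97 for miR-222, between -2.05 and 2.29 for miR-221, between -0.16 and 4.26 for miR-451, between -0.16 and 2.20 for miR-144. The difference in mean share of let-7a was -1.90 percentage points without miR-21 in the sum and -0.0174 with all loci summed. Of 16 alternatives, the relative list median kept its sign in 10 for miR-15 and miR-16, in 13 for the miR-10, miR-99, miR-125 and miR-196 list and for miRNAs described as raised in mesenchymal states, in 14 for miR-23, miR-24 and miR-27, for miR-221 and miR-222 and for blood cells, and in 15 for the miR-34 list and for the endothelial, muscle, liver and neural list. It kept its sign in every alternative run for the other 12 lists. Both planned count-model alternatives were not run, because whole reads were not recovered for the values at the floor. No paired analysis was possible because the labels give no pairing between the high and low lines. Depth limits low values, above all in CMT-12, where 1 read was worth 2.32.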

Other observations

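miR-9, a miRNA of the nervous system that is also expressed in carcinomas, was high in CMT-27 and was looked at after its values were seen. It had 5597 in CMT-27 and 338.5 in CMT-12, against 121.3, 405.9 and 268.5 in CMT-28, CMT-47 and CMT-119 (limma adjusted p = 0.421). The CMEC samples had 251.3, 2.83 and 4.16, so CMEC2 and CMEC3 lay far below all 5 lines while CMEC1 lay within the range of the low lines.

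miR-195 and miR-497, neighbours on chromosome 5, differed in sign on the deposited scale, with log2 differences of 1.24 ± 1.15 for miR-195 and -1.33 ± 0.93 for miR-497 (SE). The sets overlapped for miR-195 on the share scale, and its difference was -0.47 after median centring. miR-195 had 17.3 in CMT-27 and 18.5 in CMT-12, against 7.73, 9.71 and 4.48 in CMT-28, CMT-47 and CMT-119. miR-497 had 3.46 in CMT-27 and 2.32 in CMT-12, against 9.27, 9.71 and 7.16 in the low lines. Neither passed the test (limma adjusted p = 0.615 and 0.488), and the CMT-12 value of miR-497 rested on 1 read.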
